A study of Homo sapiens and Mus musculus and synthetic construct with 31 samples.

Results

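Random sequences are the negative controls of a massively parallel reporter assay (MPRA): strings of bases drawn without reference to a genome, against which the activity of real regulatory sequences is read. The barcode index listed 1619 of them, each 144 bases long and attached to 3 barcodes, beside 13533 sequences taken from human and mouse transcription start sites (TSSs) and 4 tiles of the CMV promoter. Members were the entries marked as random in the barcode index, with barcodes under 10 plasmid DNA counts left out and at least 2 barcodes left. This kept 1604 of 1619 random sequences, among 13469 of 15156 sequences in all. Of the kept ones, 1429 had all 3 barcodes and 175 had 2, and of the 15 lost ones, 14 had 1 barcode left and 1 had none. No stretch of 20 bases in any of the 1619 was shared with a TSS sequence, a CMV tile or another random sequence, on either strand.

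The library was transfected transiently into human and mouse embryonic stem cells (ESCs), and barcodes were counted in RNA and in the plasmid pool. The hESCs were HUES64, grown without feeder cells in mTeSR1, from 3 passages with 3 transfections each by Lipofectamine Stem. The mESCs, a line from mouse blastocysts kept feeder-free in 2i medium, came from 3 passages with 1 Lipofectamine 2000 transfection each. Each cell type is 1 line, so the spread between its passages holds no variation between lines, and line, medium, reagent and species change together and cannot be told apart. The plasmids were built with and without a minimal promoter in front of GFP. Which version these counts come from is not given in the sources used here.

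In a reporter assay a sequence raises transcription when transcription factors of the host cell bind to it. Most such factors recognise short words of bases, which can arise by chance in random DNA. ETS factors, searched for here by the word CCGGAAG, NRF1, which binds GCGCATGCG, and YY1 act at the promoters of many broadly expressed genes. POU and SOX factors, such as OCT4 and SOX2, are known for keeping ESCs pluripotent. The random background and the active sequences within it are described here. What made a random sequence active was not tested.

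The random sequences that the results below turn on are printed 5′ to 3′ as designed, numbered R1 to R1619 in the order of the index. Capitals mark exact matches, on either strand, to any word of a list of 30 motifs, and a sequence without capitals held none. The first set holds the random sequences with the highest activity in hESCs.
R439: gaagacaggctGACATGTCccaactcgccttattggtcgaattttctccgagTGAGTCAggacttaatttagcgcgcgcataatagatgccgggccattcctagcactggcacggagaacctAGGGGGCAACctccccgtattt
R752: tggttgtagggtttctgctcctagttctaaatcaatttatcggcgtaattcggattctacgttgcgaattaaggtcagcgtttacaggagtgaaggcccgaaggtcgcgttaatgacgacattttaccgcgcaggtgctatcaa
R409: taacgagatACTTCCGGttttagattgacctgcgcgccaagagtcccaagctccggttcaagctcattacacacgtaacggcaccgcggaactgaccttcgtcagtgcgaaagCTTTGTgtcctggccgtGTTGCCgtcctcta
R145: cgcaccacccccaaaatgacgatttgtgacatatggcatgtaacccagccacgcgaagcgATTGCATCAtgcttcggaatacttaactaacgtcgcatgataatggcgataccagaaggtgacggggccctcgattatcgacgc
R1557: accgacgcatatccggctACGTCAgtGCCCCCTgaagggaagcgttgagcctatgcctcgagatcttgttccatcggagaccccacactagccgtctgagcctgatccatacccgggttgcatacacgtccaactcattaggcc
The next set was active in both cell types at similar levels.
R517: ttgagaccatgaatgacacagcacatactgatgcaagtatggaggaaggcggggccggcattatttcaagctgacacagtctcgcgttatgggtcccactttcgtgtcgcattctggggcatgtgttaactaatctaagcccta
R1599: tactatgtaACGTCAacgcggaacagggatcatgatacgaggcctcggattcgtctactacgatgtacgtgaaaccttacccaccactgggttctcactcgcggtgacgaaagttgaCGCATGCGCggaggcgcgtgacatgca
R1544: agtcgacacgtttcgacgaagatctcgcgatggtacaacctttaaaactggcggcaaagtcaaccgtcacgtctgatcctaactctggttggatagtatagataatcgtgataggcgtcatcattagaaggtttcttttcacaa
R1309 and R1148 are shown because they were higher in mESCs.
R1309: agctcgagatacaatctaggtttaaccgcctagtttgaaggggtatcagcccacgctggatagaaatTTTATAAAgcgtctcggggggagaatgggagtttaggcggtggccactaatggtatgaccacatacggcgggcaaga
R1148: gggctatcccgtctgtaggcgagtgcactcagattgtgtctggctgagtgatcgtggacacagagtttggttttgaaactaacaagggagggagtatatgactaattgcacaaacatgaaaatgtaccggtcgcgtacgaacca
R1443, R632 and R1436 hold, as R409 does, the longer ETS word CCGGAAGT, here on the reverse strand as ACTTCCGG.
R1443: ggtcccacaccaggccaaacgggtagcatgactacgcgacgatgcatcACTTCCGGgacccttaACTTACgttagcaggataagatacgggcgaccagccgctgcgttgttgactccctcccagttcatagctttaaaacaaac
R632: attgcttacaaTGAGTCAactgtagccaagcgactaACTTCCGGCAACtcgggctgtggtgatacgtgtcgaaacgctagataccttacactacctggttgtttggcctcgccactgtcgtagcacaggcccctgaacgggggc
R1436: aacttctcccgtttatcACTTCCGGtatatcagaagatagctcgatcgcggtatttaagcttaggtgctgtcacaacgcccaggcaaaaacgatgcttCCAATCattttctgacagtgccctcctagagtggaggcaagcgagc

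Barcodes of the random sequences took 3.09% of the plasmid reads of the indexed barcodes, with a median of 440 counts per barcode. They took 1.14% to 1.43% of the RNA reads, with medians of 79 to 115 per hESC library and 123 to 178 per mESC library. All 181026 indexed barcodes had an even plasmid DNA count, whereas 45.9% to 48.1% of the RNA counts above 0 were even. Why the plasmid counts are even is not given in the sources used here. A ratio scaled to the random sequences is not changed by a common factor. With a minimum of 20 in place of 10 DNA counts, 51 random sequences were called active in hESCs and 12 in mESCs, against 44 and 10 below. Reads carried no molecular identifiers, so repeated reads of 1 molecule could not be told from separate molecules.

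MPRA activity was the summed RNA count over the summed DNA count of the kept barcodes, divided by the median random sequence of the same passage, so that 1 is the random median. In the 3 hESC passages the middle 50% of random sequences lay between 0.689 and 1.43, between 0.776 and 1.28, and between 0.774 and 1.3. In the mESC passages it lay between 0.682 and 1.41, between 0.788 and 1.26, and between 0.717 and 1.32. The median absolute deviation of log2 activity was 0.523, 0.36 and 0.373 in hESC passages 1 to 3 and 0.516, 0.34 and 0.428 in mESC passages 1 to 3. The first passage had the widest spread in each cell type, and the cell types overlapped. The hESC mean of 0.419 ± 0.0905 and the mESC mean of 0.428 ± 0.0878 (SD, n = 3 passages each) differed by less than the spread between passages (exact permutation test, two-sided, p = 1). With 3 passages against 3, no such test can go below 0.1. At a level of 2 or more stood 9.23%, 5.8% and 6.3% of the random sequences in the hESC passages and 8.92%, 4.3% and 7.36% in the mESC passages.

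The random sequences formed a low but not an empty background for the TSS sequences. The median TSS sequence had an activity of 1.42 to 1.43 in the hESC passages and 1.24 to 1.31 in the mESC passages, on the same scale. The 95th percentile of the random sequences was 2.16 to 2.41 in hESCs, a level that 28% to 33.1% of the 11861 TSS sequences passed. It was 1.88 to 2.33 in mESCs, which 23% to 27.4% passed. TSS sequences carry more barcodes, and with each reduced to its first 3 kept barcodes the shares were 29% to 33.2% and 24.7% to 28.8%.

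Most of the variation among random sequences lay between barcodes of the same sequence. Over the 1429 with 3 barcodes, the activities of different barcodes correlated with Spearman's rho of 0.156 to 0.183 in hESCs and 0.0554 to 0.105 in mESCs, given as a description. The SD of log2 activity within a sequence was 0.892 in hESCs and 1.03 in mESCs, as a root mean square, whereas the SD between sequences was estimated at 0.386 and 0.258. This scatter was largest at low DNA counts. Among 652 barcodes with 10 to 98 DNA counts the median absolute deviation of log2 activity was 0.966 in hESCs and 1.29 in mESCs, and among 993 barcodes with 1000 or more it was 0.353 and 0.333. Averaged over barcodes, random sequences kept an order across passages, with rho of 0.422 to 0.601 between hESC passages and 0.272 to 0.389 between mESC passages. Pairs with hESC passage 1 gave the lower hESC values, 0.442 and 0.422. The mean activities in hESCs and mESCs correlated with rho of 0.49 over the 1604, sharing the same plasmid DNA counts as denominator.

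Barcodes without a single RNA read took a larger share in each mESC passage than in any hESC passage. Of the 4637 kept random barcodes, 3.49%, 1.92% and 2.14% had none in the hESC passages and 7.14%, 4.64% and 8.69% in the mESC passages. The groups did not overlap, with means of 2.52% ± 0.854 and 6.82% ± 2.05 (SD, n = 3), at the smallest p the exact permutation test allows (p = 0.1, adjusted p = 0.2 over 6 measures compared this way). An hESC passage sums 3 libraries, and in single hESC libraries the share was 6.99% to 15.3%. In the TSS sequences it was 1.68% to 3.65% per hESC passage and 5% to 8.91% per mESC passage, close to the random ones. At 0 in all 3 passages stood 14 random barcodes in hESCs and 50 in mESCs.

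Active random sequences were few, and more were called in hESCs. A sequence was called active where the mean log2 activity over its barcodes was at least 1 with an adjusted p under 0.05, by limma over all 13469 sequences with Benjamini-Hochberg adjustment. In hESCs 44 random sequences (2.74% of 1604) were active, where 27.0% of all sequences tested were. In mESCs 10 (0.623%) were active, where 19.7% of all sequences were. More barcodes per TSS sequence give their tests more power, so the random and the other shares are not on a par. At a log2 activity of at least 1, with no p required, stood 90 random sequences in hESCs and 74 in mESCs. An hESC passage holds 3 libraries and an mESC passage 1, and the part of this in the counts was not tested. Without mESC passage 3 the mESC count was 5, and without an hESC passage the hESC count stayed at 30 to 42. Requiring in addition that every kept barcode stood above the random median in each of the 3 passages left 32 in hESCs and 6 in mESCs, where 7.60% and 4.66% of all sequences met this. TSS sequences carry more barcodes, so the requirement on every barcode is harder for them to meet, and these shares are not on a par. The 32 and the 6 are called reproducibly active below. All 10 of the sequences active in mESCs were also active in hESCs, which is 22.7% of the 44. Both calls use the same barcodes and plasmid DNA counts, so they are not independent. The same overlap over all sequences was not counted. Of the 34 active in hESCs only, 30 had a log2 activity above 0 in mESCs and 15 of at least 1 there. Of all 1604 random sequences, 74 stood at 1 or more in mESCs, and 0 is the median of them all. Missing the call in mESCs thus did not always mean lying at the random median. The plasmid DNA counts shared by both cell types enter these values, and their part was not tested. The lower side held 8 random sequences in hESCs and 6 in mESCs at a log2 activity of -1 or lower with an adjusted p under 0.05 (limma), and 1 of them, R346, was in both. Over all sequences 0.453% lay that low in each cell type, close to the random shares of 0.499% and 0.374%.

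R439 had the highest activity of all random sequences, at 20.8, 22.8 and 24.7 in the hESC passages and 3.97, 3.99 and 2.26 in the mESC passages. Its mean of 22.7 ± 1.96 in hESCs (SD, n = 3) was above 99.2% of the TSS sequences, and the highest CMV tile stood at 9.93 to 11.5 in the hESC passages. Its log2 activity in hESCs was 4.52 ± 0.504 (SE, adjusted p = 0.00145, limma). Only 2 of its barcodes were kept, with means of 30.9 and 14.7, so that the least active barcode of R439 was still over 10 times the random median. The printed R439 holds a reverse match to the AP-1 word TGACTCA, bound by FOS and JUN factors, a CTCF core word and both strands of a p53 word.

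R752, at 7.3, 9.45 and 9.72 in hESCs and 3.31, 2.73 and 2.14 in mESCs, held none of the 30 motifs. It too rested on 2 barcodes, with hESC means of 10.8 and 6.93. R1557, with 3 barcodes at 5.95, 6.2 and 6.93, had 5.63, 7.01 and 6.36 in hESCs against 2.54, 2.1 and 2.54 in mESCs. All 3 of its hESC passages exceeded all 3 mESC passages.

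R409 was the most active random sequence with 3 barcodes in hESCs and had, with R1544, the highest mESC mean among the called ones. Its activity was 7.45, 8.18 and 9.02 in hESCs and 5.14, 4.36 and 4.61 in mESCs. Its log2 activity was 3.05 ± 0.333 (adjusted p = 0.000515) in hESCs and 2.42 ± 0.399 (adjusted p = 0.0046) in mESCs (SE, limma). The 3 barcodes, with 1644, 188 and 2026 DNA counts, gave means of 7.68, 6.62 and 8.79 in hESCs and 5.33, 5.23 and 4.14 in mESCs. Among TSS sequences it would rank above 92.6% in hESCs and 88.1% in mESCs. The 8-base ETS word lies on its reverse strand at bases 10 to 17.

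R1599 and R517 were active at like levels in both cell types. R1599 had 4.32, 4.7 and 4.75 in hESCs and 4.14, 3.99 and 4.6 in mESCs, and its mESC over hESC difference on the log2 scale was -0.00442 ± 0.118 (SE, edgeR). It is the random sequence that holds the NRF1 word on the reverse strand, at bases 118 to 126. R517 had 4.58, 4.61 and 4.67 in hESCs and 5.35, 3.03 and 4.69 in mESCs, a log2 difference of 0.02 ± 0.157 (SE, edgeR), and held no motif of the list. R1544 had 3.91, 4.76 and 3.94 in hESCs and 4.75, 4.29 and 5.05 in mESCs, also without a listed motif. In hESC passage 1 its barcode 3 stood at 0.544, and it therefore counted as reproducibly active in mESCs and not in hESCs. The other reproducibly active sequences in mESCs were R825, at 3.47, 2.79 and 2.57, and R628, at 3.08, 1.98 and 2.4. R628 lost its call without any one of the mESC passages (adjusted p of 0.05003 to 0.0808, limma), and R825 lost it without passage 2 (adjusted p = 0.0571).

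The remaining named hESC sequences, R1495, R1262 and R277, had means of 4.98, 4.8 and 4.22 there and of 3.55, 2.08 and 2.53 in mESCs. Near the threshold, R1075 was the lowest called in hESCs (log2 activity 1.09, adjusted p = 0.0483, limma) and R476 the first not called (1.14, 0.0501). In mESCs R1257 was the lowest called (1.44, 0.0434), and R476 was again the first outside (1.39, 0.0582).

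A high mean alone did not make a call. R1484 had 5.02, 6.88 and 5.52 in hESCs, but its barcodes averaged 1.58, 12.1 and 0.606, and its log2 activity of 1.31 had an adjusted p of 0.292 (limma). R1166 had 3.49, 5.15 and 7.53 in mESCs, with barcodes at 0.295, 1.44 and 6.56 and an adjusted p of 0.682. Both were chosen here as the highest means that were not called, after their values were seen.

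Activity differed between cell types for a few random sequences. Counts were compared with edgeR's quasi-likelihood test, mESC over hESC, called at an adjusted p under 0.05 and a change of at least 2-fold. Of the random sequences, 16 were higher in mESCs, where 0.750% of all sequences tested were, and 13 were higher in hESCs, where 2.47% of all were. Random shares were 0.998% and 0.81%. The median random sequence itself stood at 0.11 on this log2 scale, so the split depends on the reference. With the median random sequence set to 0, 10 were higher in mESCs and 22 in hESCs. Leaving out hESC passage 1 gave 10 higher in mESCs, leaving out mESC passage 3 gave 31, and leaving out mESC passage 2 gave 23 higher in hESCs. With 1 added to each count, all 13 higher in hESCs and 14 of the 16 higher in mESCs had every barcode on 1 side. Without the added count it was 13 and 13, as R1384 dropped out. With the added count, they made up 0.81% and 0.873% of the 1604 random sequences. Of all sequences tested, 1.46% and 0.379% were called and had every barcode on 1 side. Most of all sequences carry more barcodes, which makes this harder to meet, so these shares are not on a par.

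Of the 13 sequences higher in hESCs, 8 were called active there. None of the 16 higher in mESCs was called active in either cell type by limma. Both kinds of call use the same RNA counts, so they are not independent, and this overlap was not counted over all sequences. R145 had the largest difference. It stood at 7.34, 6.84 and 8.2 in hESCs and at 0.764, 1.35 and 0.283 in mESCs, a log2 difference of -3.09 ± 0.421 (SE, adjusted p = 4.73e-06, edgeR). Its 2 barcodes averaged 7.63 and 7.35 in hESCs and 1.37 and 0.436 in mESCs, so both were high in hESCs and neither was in mESCs. Bases 61 to 69 of R145 are the reverse complement of TGATGCAAT, the C/EBP-ATF response element (CARE) through which ATF4 acts in the amino acid response, a word searched for after the values of R145 were seen. Of the 4 random sequences with that word, R145 alone was active in hESCs, and the median of the 4 was 0.995.

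R439 followed with -2.62 ± 0.17 (SE, adjusted p = 5.4e-11, edgeR), and each of its hESC passages was over 5 times its mESC passages. R767, with 2.07, 1.45 and 1.37 against 0.295, 0.705 and 0.428, differed by -1.67 ± 0.415 (SE, adjusted p = 0.00419, edgeR), and lay below the random median in every mESC passage. R752 and R261 differed by -1.58 ± 0.219 and -1.45 ± 0.447 (SE), with adjusted p of 6.06e-06 and 0.0201 (edgeR), and the R261 call was lost without hESC passage 1 or 3 or mESC passage 3. R409, for comparison, differed by -0.69 ± 0.116 (SE), under the 2-fold limit.

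R1309 had the largest difference toward mESCs, with 1.81, 5.44 and 4.79 there and 0.547, 0.858 and 1.52 in hESCs. The log2 difference was 2.17 ± 0.471 (SE, adjusted p = 0.00123, edgeR). Its 2 barcodes, with 244 and 368 DNA counts, averaged 6.61 and 2.29 in mESCs. The printed R1309 holds the TATA box word on both strands. Across passages R1148 was the steadiest of the named ones higher in mESCs. It stood at 2.15, 3.25 and 3.65 in mESCs and 1.42, 1.22 and 0.947 in hESCs, a difference of 1.44 ± 0.231 (SE, adjusted p = 4.12e-05, edgeR). Its barcodes averaged 0.595, 1.32 and 1.77 in hESCs and 3.22, 1.41 and 3.4 in mESCs, so barcode 2 hardly differed. In the test over barcodes described below, its adjusted p was 0.27 (limma). R1386 and R1384 differed by 1.54 ± 0.385 and 1.53 ± 0.37 (SE), and in both mESC passage 1 was highest, at 3.48 and 4.71. Without that passage both calls were lost (adjusted p of 0.0781 and 0.0519, edgeR). 1 of the R1384 barcodes had 10 DNA counts, no mESC read at all and 1 hESC read. R638 rested on 2 barcode values, 14.4 in mESC passage 1 and 11.1 in passage 3, while its deepest barcode, with 2026 DNA counts, stayed at 0.366 to 0.506 in mESCs. Its call was lost without mESC passage 1 (0.56, adjusted p = 0.444), hESC passage 1 (1.36, adjusted p = 0.0994) or hESC passage 2 (1.43, adjusted p = 0.0522, edgeR).

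A test over barcodes called fewer random sequences. With limma on the mESC over hESC difference of each barcode, 5 random sequences were called higher in hESCs and 0 in mESCs, where 3.70% and 0.468% of all sequences were. At an unadjusted p under 0.05 and the same 2-fold limit these were 45 and 26, where 5.28% and 0.780% of all sequences were. Of the named ones, R439 (adjusted p = 0.0423) and R261 (adjusted p = 0.0472) kept the call, and R145 missed it at 0.0516.

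GC content of the random sequences ranged from 36.8% to 62.5% with a median of 50%, and the number of CpG dinucleotides from 2 to 22 with a median of 9. The TSS sequences had a wider GC range, 19.4% to 86.8%, and a median of 6 CpGs. Over the 1604, GC content correlated with activity with Spearman's rho of 0.0513, 0.102 and 0.0822 in the hESC passages and 0.0264, 0.0483 and 0.0538 in the mESC passages. For CpG number rho was 0.0883, 0.128 and 0.122 in hESCs and 0.0456, 0.065 and 0.0492 in mESCs. All of these values were positive and weak. DNA count, as weak a correlate, gave means of 0.0576 in hESCs and 0.113 in mESCs. CpG rho was higher in each hESC passage than in any mESC passage, with means of 0.113 ± 0.0213 and 0.0532 ± 0.0103 (SD, n = 3), at the smallest p possible (exact permutation test, p = 0.1, adjusted p = 0.2). For GC the ranges overlapped (exact permutation p = 0.2, adjusted p = 0.3).

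The differences by composition were largest at its upper end. Median hESC activity was 0.957 in the 178 random sequences under 45% GC and 1.12 in the 148 at 55% or more, of which 1.69% and 6.08% were active. In mESCs these medians were 1 and 1.09, with 1 active sequence in each. By CpG number, hESC medians were 0.992 in the 137 sequences with 2 to 5, 0.962 in the 575 with 6 to 8 and 1.2 in the 40 with 15 or more. The mESC medians of these groups were 1, 1 and 1.12. Within the sequences under 50% GC, those with 9 or more CpGs had an hESC median of 1.06 and those with fewer 0.961. At 50% GC or more these hESC medians were 1.06 and 0.971, although the active shares there were 3.18% and 3.51%. In mESCs the medians with 9 or more and with fewer CpGs were 1.03 and 0.988 under 50% GC and 1.03 and 1.06 at 50% or more, so the order was not the same on both sides of that line. The 44 sequences active in hESCs had a median GC of 52.8% and 10 CpGs.

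Among short words, ETS matches stood out. Words were searched as exact matches on both strands, and the medians that follow are descriptions without a test. CCGGAAG occurred in 25 random sequences (1.56%) and in 5.65% of TSS sequences. Median activity over the 25 was 1.38 in hESCs and 1.28 in mESCs, against 1.01 in both for the others, and their passage medians were 1.37, 1.41 and 1.49 in hESCs and 1.39, 1.3 and 1.49 in mESCs. Above 1 stood 19 of the 25 in hESCs and 22 in mESCs. Active were 6 in hESCs (24%) and 3 in mESCs (12%), so the word CCGGAAG was neither needed nor enough for a call. In hESCs the median TSS sequence with the word stood at 5.66 and the median one without it at 1.36, and in mESCs these were 4.88 and 1.23.

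The 7 random sequences with the 8-base word CCGGAAGT, searched after the words below had been seen, had an hESC median of 2.69 and an mESC median of 1.98, and the 18 with only the shorter word 1.24 and 1.22. R409 led them. R1443, with the word on the reverse strand at bases 49 to 56, had 2.89, 4.29 and 4 in hESCs and 3.33, 2.16 and 2.54 in mESCs. R1256 had hESC and mESC means of 2.92 and 2.25, and R632 of 2.69 and 1.98. R1436, with the same 8 bases on the same strand, had only 1.28 and 1.44. R831, with the word at base 84 and the shorter one at base 136, had 1.44 in hESCs and 0.662 in mESCs. The lowest ETS match was R181 at 0.495 in hESCs, with the shorter word.

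Orientation went with activity in the random matches. The 16 with CCGGAAG on the reverse strand had an hESC median of 1.78 and an mESC median of 1.5, and the 9 with it on the forward strand 1.11 and 1.08. In TSS sequences the reverse matches had 5.56 and 4.36 and the forward ones 5.28 and 4.89, so no such order held there in both cell types. For the 8-base word the reverse TSS matches had 8.3 and 7.15 and the forward ones 6.7 and 6.71. The random matches on the 2 strands also differed in other bases. Median GC was 52.4% in the 16 reverse matches and 47.9% in the 8 forward ones with a single match. Over the 10 matches under 50% GC the hESC median was 1.19 and the mESC median 1.14. Over the 15 at 50% GC or more these were 2.07 and 1.69. Random sequences without the word differed less by GC, at 0.985 and 1.03 in hESCs and 0.996 and 1.03 in mESCs. Orientation and GC content were thus not separated, and the part of either was not tested.

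A scan of all words, over the same sequences and activities as above, ranked an ETS word first in hESCs but not in mESCs. Of all 8139 words of 7 bases found in at least 15 random sequences, with the strands pooled, the middle 95% of medians lay between 0.859 and 1.19 in hESCs. The highest hESC median, 1.53, belonged to ACTTCCG, the reverse complement of CGGAAGT, in 22 sequences of which 7 were active. CCGGAAG ranked number 4 in hESCs and 17 in mESCs. In mESCs the overlapping ACCGGAA ranked number 2 with a median of 1.35, behind AAAGCGG at 1.38. ATACACG ranked number 2 in hESCs with 1.46 over 25 sequences. Words share sequences and bases, and with so many of them some medians lie at the ends whatever the words are.

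Other words of known factors were rarer or nearer to the random median. The NRF1 word occurred in 2 random sequences, at 4.59 in R1599 and 1.65 in the other in hESCs, and the YY1 word AAGATGGCG in 1, at 2.14 in hESCs and 1.88 in mESCs. These same words went with medians of 5.49 and 9.3 in hESCs over 119 and 113 TSS sequences. TGACGT, a part of the cAMP response element bound by CREB and ATF factors, occurred in 115 random sequences with medians of 1.09 and 1.08, of which 9 were active in hESCs (7.83%) and 1 in mESCs. The GC box GGGCGG of SP and KLF factors was in 106, with medians of 1.08 in each cell type and 6 active in hESCs. AP-1 words, in 32, had a median of 1.01 in hESCs, although 4 of the 32 were active there, R439 among them. The CCAAT box word CCAATC, in 97, had medians of 1.02 and 1.04, whereas TSS sequences with it had 3.24 and 2.39.

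Words of the pluripotency factors had medians on either side of the random median. The octamer core ATGCAAA of POU factors, in 22 random sequences, had an hESC median of 0.85 and an mESC median of 1.01, and none of the 22 was active in either cell type. The SOX word ACAAAG, in 107, had 0.996 and 0.955, with 3 active in each cell type (2.8%, against 2.74% of all random sequences in hESCs and 0.623% in mESCs). The ESRRB word CAAGGTCA, in 8, had 1.11 and 1.1, with none active. The TATA box word TATAAA, in 99, had 0.963 and 1.01. The longer octamer ATGCAAAT was found in 3 random sequences, with medians of 1.93 and 1.03. Sites of XbaI and KpnI, the enzymes used to insert GFP, were in none of the 1604.

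Some active random sequences held no listed word, though a smaller share than among all. None of the 30 motifs occurred in 11 of the 44 sequences active in hESCs (25%) and in 3 of the 10 active in mESCs (30%), R517 and R1544 among them. Over all 1604 random sequences it was 709 (44.2%). This difference was not tested. The list is not independent of the calls, as CARE was added after the values of R145 were seen. It is the only listed word in R145, which was active in hESCs. The list holds exact words only, so related words go unmarked. R1262, for example, held none of the 30 but contains ACTTCCG, the word with the highest hESC median in the scan. R1262 itself contributes to that median, so the rank of the word says nothing separate about R1262.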

How the data were processed

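Barcodes were counted in 13 MPRA libraries, 1 of plasmid DNA, 9 of hESC RNA and 3 of mESC RNA. The authors trimmed reads with cutadapt, kept reads that matched a barcode and 10 adjoining bases exactly, and deposited the raw count of each barcode, without normalization or molecular identifiers. The version of cutadapt is not given in the sources used here. The authors' index gave the sequence and type of 181026 barcodes, and 58627 further barcodes in the count tables were not analysed here, nor were the RNA-seq libraries.

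The 3 hESC transfections of a passage were summed. Barcodes needed 10 DNA counts and sequences 50% of their barcodes. Activity tests used log2 of the barcode ratio with 1 added to the RNA count, averaged over passages, in limma 3.58.1. Cell types were compared with edgeR 4.0.16, with TMM scaling and every sequence of the index in the fit, and with DESeq2 1.42.0 as an alternative. Median absolute deviations used a floor of -6 on the log2 scale. The limma activity test and the main edgeR comparison were tested on simulated data, and the other procedures were not. Exact permutation tests ran in scipy 1.17.1 over passages, taken from the replicate numbers.

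The members, motifs and alternatives were chosen with earlier results of these data known. The sequences named were the 10 reproducibly active ones with the highest mean in each cell type, or fewer where fewer passed, the 5 with the largest cell-type difference in each direction among called ones with all barcodes on 1 side, and those nearest to the thresholds. Others are named as chosen after their values were seen. 2 motifs, CARE and the 8-base ETS word, were added later, and so were a DNA minimum of 20 and the check of barcode signs without an added count.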

Additional observations from a re-analysis of the deposited data

How the results depend on the processing

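Several counts of active random sequences were higher when the DNA minimum was set to 50 (17 active and 13 reproducibly active in mESCs) or when activity was called by how many median absolute deviations a sequence lay above the random median (71 active in hESCs, 51 active and 13 reproducibly active in mESCs). Under the latter rule, reproducibly active ones in hESCs numbered 28 in place of 32. That distance ignores the spread between barcodes. With each passage left out in turn, 30 to 42 were active and 24 to 38 reproducibly active in hESCs, and 5 to 8 and 4 to 7 in mESCs. For the cell-type calls, scaling to the random median gave 10 higher in mESCs and 22 in hESCs, DESeq2 gave 34 and 23, and limma over barcodes gave 0 and 5. With each passage left out, 10 to 31 were higher in mESCs and 9 to 23 in hESCs. The cause of these shifts was not tested. Same-numbered passages did not deviate together (correlations 0.0288, 0.024 and 0.0276), so the numbers do not pair the samples, and a replicate block gave 17 higher in mESCs and 19 in hESCs. The difference in CpG rho between cell types stayed between -0.0715 and -0.0518, that in GC rho between -0.0495 and -0.0239, and that in spread between -0.0344 and 0.0616. The ETS difference in median log2 activity was 0.452 in hESCs and 0.344 in mESCs, and over the added alternatives 0.466 to 0.576 and 0.257 to 0.483. Of 93 alternative values for named active sequences 89 kept their call, and of 136 for named cell-type differences 120 did. None of these changed direction.

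Precision was limited by 2 or 3 barcodes per sequence, 1 DNA library and 3 passages of 1 line per cell type.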
